A study of Mus musculus with 2 samples.

Results

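Aggrecan and 9 other structural genes of cartilage were examined at the level of DNA methylation: Acan, Hapln1, Comp, Matn1, Matn3, Matn4, Prg4, Snorc, Ucma and Chad, all of which encode cartilage matrix proteins that are not collagens. Each gene was represented by the listed regions that overlap its annotated span widened by 20 kb on both sides. By this rule 15 regions, of the 35861 in the whole list, belonged to 8 of the 10 genes, and none belonged to more than 1 of them. Comp and Matn1 had none.

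The list comes from MBD-seq, in which the methyl-CpG-binding protein MBD2 pulls down sheared methylated DNA for sequencing. The cells were primary chondrocytes from knee cartilage of C57BL/6 mice at postnatal day 3, from mice labelled Control and from mice with a conditional knockout of Uhrf1 (Uhrf1 cKO). Both kinds of cells were grown to confluence and received recombinant human BMP-2 at 100 ng/ml for 24 hours, so no untreated cells enter the comparison. The sources used here do not give the Cre driver of the knockout or whether animals were pooled. There was 1 library of each genotype. No difference described here therefore has a replicate check, and no p-value between the genotypes was computed. A library of sequenced DNA holds no expression, so the chondrocyte label could not be checked against marker genes. In a bulk library, a lower signal in every cell and a loss in some of the cells cannot be told apart.

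Cartilage resists compression because aggrecan, a proteoglycan carrying many sulfated sugar chains, is held along hyaluronan by link proteins and traps water within a collagen network. Smaller adaptor proteins, the matrilins and COMP among them, tie this gel to the collagen fibrils, and lubricin coats the joint surface. Uhrf1 recognises hemimethylated DNA behind the replication fork and brings in Dnmt1, so that methylation is copied to the new strand. The comparison asks where chondrocytes lacking Uhrf1 lost captured methylated DNA, and here whether this took place at the genes that make up their matrix.

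MBD2 binds methylated CpG, so the CpG content of a sequence bounds what can be captured from it. Promoter windows of 300 bases (250 before to 50 after the transcription start, RefSeq, GRCm38.p6) were at hand for 7 of the 10 genes, with 2 windows for Matn4. The windows of the 3 genes with a region inside the span, Acan, Hapln1 and Ucma, and the Matn4 window nearest to a region, are shown 5′ to 3′ on the gene's strand, with each CpG in capitals.
Acan (chr7:79052976-79053275, plus strand): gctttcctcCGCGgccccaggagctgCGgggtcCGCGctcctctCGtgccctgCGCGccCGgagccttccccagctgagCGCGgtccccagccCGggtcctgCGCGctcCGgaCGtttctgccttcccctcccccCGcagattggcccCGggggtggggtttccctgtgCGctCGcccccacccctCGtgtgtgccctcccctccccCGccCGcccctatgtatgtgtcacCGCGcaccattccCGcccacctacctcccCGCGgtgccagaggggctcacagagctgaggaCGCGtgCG
Hapln1 (chr13:89540386-89540685, plus strand): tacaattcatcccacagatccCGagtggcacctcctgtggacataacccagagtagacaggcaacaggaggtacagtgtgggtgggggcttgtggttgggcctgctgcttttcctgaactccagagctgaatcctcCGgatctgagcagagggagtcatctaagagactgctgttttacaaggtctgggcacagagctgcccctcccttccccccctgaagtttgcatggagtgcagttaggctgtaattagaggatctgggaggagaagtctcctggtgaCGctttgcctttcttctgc
Ucma (chr2:4975872-4976171, plus strand): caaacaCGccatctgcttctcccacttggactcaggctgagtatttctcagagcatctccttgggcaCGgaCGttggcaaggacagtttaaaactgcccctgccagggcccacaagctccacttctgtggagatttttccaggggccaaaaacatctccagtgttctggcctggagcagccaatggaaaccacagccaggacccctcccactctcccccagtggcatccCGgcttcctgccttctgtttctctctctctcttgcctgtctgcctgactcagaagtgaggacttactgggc
Matn4 (chr2:164405111-164405410, minus strand): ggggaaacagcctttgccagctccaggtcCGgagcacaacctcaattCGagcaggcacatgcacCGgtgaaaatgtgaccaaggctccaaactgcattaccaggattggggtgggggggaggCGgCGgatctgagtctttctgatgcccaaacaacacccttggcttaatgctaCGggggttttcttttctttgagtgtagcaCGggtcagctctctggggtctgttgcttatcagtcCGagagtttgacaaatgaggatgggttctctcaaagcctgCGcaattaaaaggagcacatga
The Acan window held 31 CpG dinucleotides, more than 86.0% of the 21263 promoter windows of protein-coding genes. The Hapln1 window held only 3 and the Ucma window 4, which placed them above 18.1% and 23.9% of windows, and the printed Matn4 window held 9. The other Matn4 window held 19, Matn3 15, Chad 13 and Matn1 6, against a median of 13 over all windows (interquartile range 4 to 24). The motif searched was CG, which reads the same on both strands, and 95.4% of windows held it at least once.

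No region overlapped any of the 8 promoter windows of these genes. A region overlapped 0.823% of the promoter windows of protein-coding genes (175 of 21263), so none among 8 is near the background and says nothing particular to cartilage matrix genes. The nearest region lay 2.37 kb from a window, at Matn4, and the farthest 36.72 kb, at Matn1. Across the genome the overlapped share was 0.464% for windows with up to 4 CpG, 2.12% for 5 to 9, 1.22% for 10 to 19 and 0.340% for 20 or more. Whether Control DNA was methylated at these promoters was not measured by this list, which names a place only where the Control library exceeded the cKO library.

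**Figure D1:**
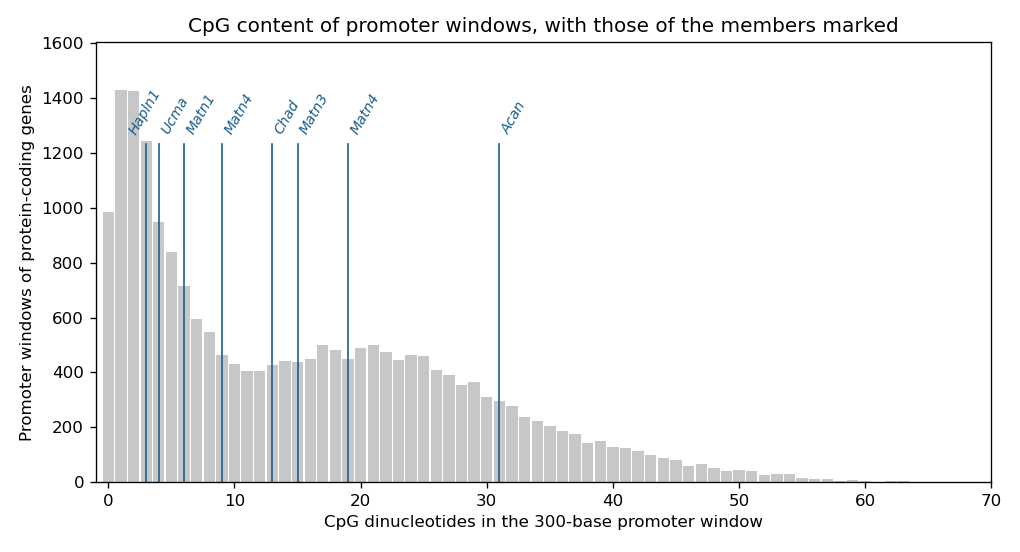
Number of CpG dinucleotides (x axis) in the 300-base promoter windows of protein-coding genes, with the number of windows of each content as grey bars (y axis) and the 8 windows of the cartilage matrix genes as blue lines. The members spread from 3 CpG (Hapln1) to 31 (Acan), on both sides of the median of 13.

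Across the 10 genes, regions of higher Control signal lay around most of them but inside few. A region lay in the widened span of 8 of 10 genes, where 65.4% of all 21887 protein-coding genes had one and 68.4% of the 14080 whose length was within the members' range of 4081 to 71304 bp. Only 3 of 10 had a region inside the span (Acan, Hapln1 and Ucma, 1 each), against 38.2% of all protein-coding genes and, at this rounding, the same share of those as long as the members. None had a region within 1 kb of either end, against 9.64% and 10.7%. With so few genes, these counts are close to the background, and no test of the difference was made.

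Of the 15 regions, 12 (80%) lay outside the matrix genes, between 2.21 and 18.67 kb from the span. The flanks made up 63.6% of the length searched (400 of 628 kb). The members had 1.31 regions per 100 kb in their spans, from only 3 regions, and 3.0 in their flanks. For protein-coding genes as long as the members, counted gene by gene, the flanks were 63.1% of the length and held 61.6% of the regions. Their densities were 2.81 in the spans and 2.63 in the flanks. Over all protein-coding genes the order was that of the members, with densities of 1.91 in the spans and 2.31 in the flanks. There the flanks were 45.5% of the length and held 50.3% of the regions. The difference of either background from the members was not tested. Of the 12, 8 had their summit, the position of highest signal, inside another protein-coding gene. A cartilage matrix gene was the nearest protein-coding gene of only 6 regions, 2 at Snorc and 1 each at Acan, Hapln1, Matn4 and Ucma. The 20 kb rule thus ties 9 regions to a matrix gene although another gene lies closer.

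The limit of 20 kb falls within a spread of distances. The outermost region inside it, at Matn4, lay 18.67 kb from the span. The first region beyond it, 21.65 kb from Prg4 and again inside Tpr, had 114 Control tags and a fold of 11.11, and the next, 23.17 kb from Chad inside Acsf2, had 39 tags and a fold of 8.84. Between 20 and 50 kb there were 14 further regions near 9 of the genes, with folds of 6.05 to 31.09 (median 9.77) and 32 to 245 tags. Ucma gained the most, 4, for 7 in all. Acan gained none, so its internal region was the only one within 50 kb of the gene.

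**Figure D2:**
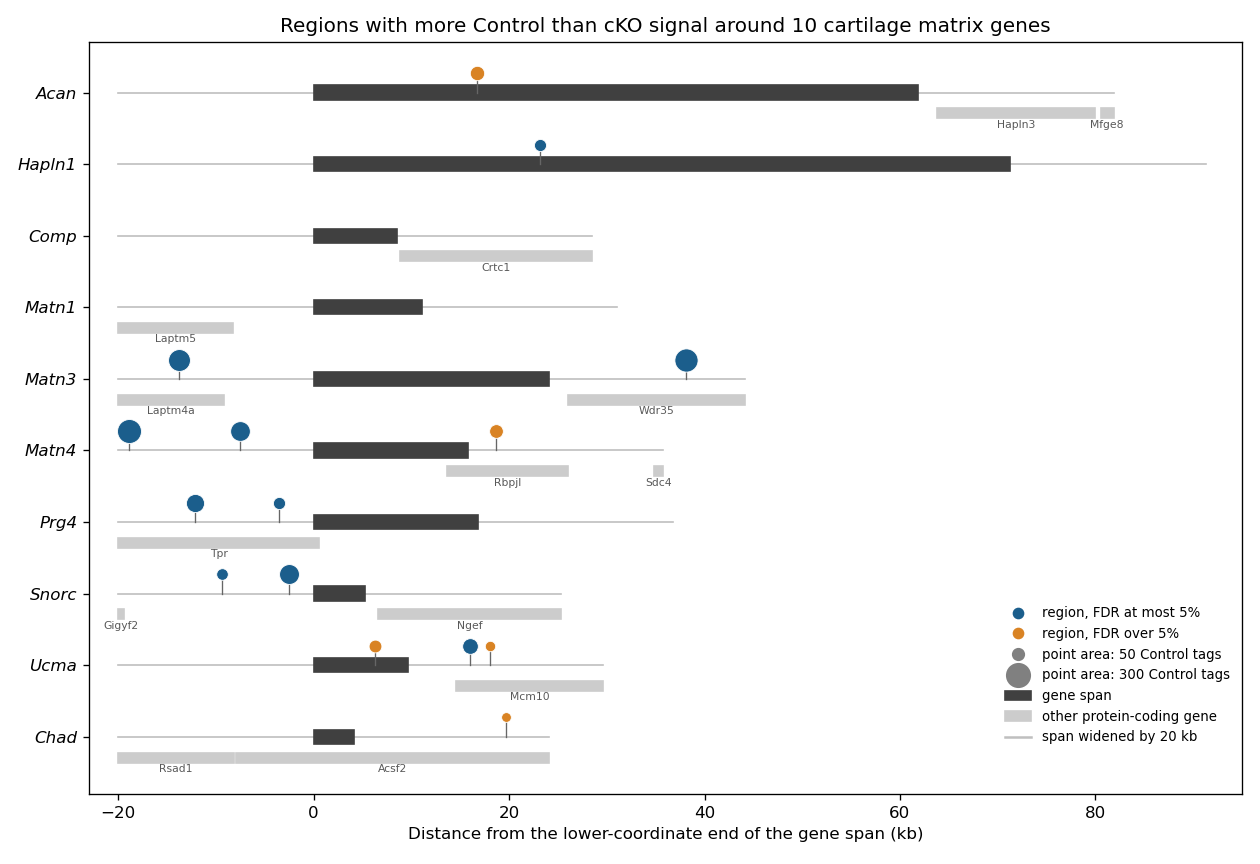
Each row is a gene span (dark bar) with 20 kb on both sides (line), and other protein-coding genes below it in grey, by distance in kb from the lower-coordinate end of the span. Points mark region summits, with area by Control tags and colour by the authors' FDR: 3 points stand on a dark bar, and 12 stand in the flanks.

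Every region carries 3 values of the authors' deposited table. The first is its Control tags, the sequence reads from Control counted in it without duplicates. The second is its fold, the Control signal at the summit divided by the level that the cKO library predicts around it, which exceeds 1 throughout since only regions higher in Control are listed. The third is an FDR in percent, found by swapping the libraries. The cKO tags of a region are not among these values. Intervals printed with tags are 95% exact Poisson intervals and cover counting error only. Exon, intron and UTR positions were not analysed here, as the gene table gives only spans. All coordinates are in mm10 (GRCm38).

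The aggregate of aggrecan and its link protein had 1 region in each gene. Acan, the core protein gene of the proteoglycan (chromosome 7, 79053226 to 79115099, 61.9 kb), held a region at 79069700 to 79070150. The summit lay 16.68 kb downstream of the start of Acan and 27% of the way along the gene. The region had 94 Control tags (76.0 to 115), a fold of 6.09 and an FDR of 82.88%. Only 7.10% of all regions had a lower fold, so the single aggrecan region was among the weakest of the list by that measure. Nothing else was listed in the 101.87 kb window, which also holds Hapln3, a second link protein gene, and Mfge8.

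Hapln1, the link protein that locks aggrecan onto hyaluronan (chromosome 13, 89540529 to 89611832, 71.3 kb), held a region at 89563506 to 89563843. The summit lay 23.09 kb downstream of the transcription start, 32.5% of the way along the gene. The region had 58 Control tags (44 to 75), a fold of 13.44 and an FDR of 3.75%. Of the 3 regions inside a matrix gene, this was the only one with an FDR of at most 5%. Its surroundings were sparse: the 1 Mb centred on Hapln1 held 2 regions, where the median protein-coding gene had 18 and 2.27% had fewer than 2. The other 9 genes had 12 to 27 regions in their 1 Mb.

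The windows of the adaptor protein genes Comp, Matn1, Matn3 and Matn4 held 0, 0, 2 and 3 regions. Over all protein-coding genes 34.6% had no region in the window, and the differences among the 4 genes were not tested. Comp, a pentameric thrombospondin that binds collagen fibrils (chromosome 8, 70373548 to 70382066), had no region in its window. The nearest one lay 41.1 kb away inside Upf1, the helicase of nonsense-mediated decay, with 245 Control tags, a fold of 9.29 and an FDR below rounding (0%). Matn1, a cartilage matrilin (chromosome 4, 130944385 to 130955476), also had none. Its nearest region lay 37.0 kb away, inside a noncoding gene model beside the lysosomal gene Laptm5, with 98 tags, a fold of 7.60 and an FDR of 6.92%. On the other side, 45.22 kb away, lay a region for which Matn1 is the nearest protein-coding gene, with 130 tags, a fold of 10.25 and an FDR of 1.66%. A nearest region at a greater distance than these was found for 22.9% and 24.6% of protein-coding genes, so gaps of this size are common. Both genes lay in well-populated stretches, with 27 regions in the surrounding 1 Mb in each case.

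Matn3, a growth plate matrilin (chromosome 12, 8947929 to 8972028), had a region in each flank and none in between. The one upstream, at 8933872 to 8934375, lay inside the lysosomal membrane protein gene Laptm4a, with 256 Control tags (226 to 289), a fold of 5.90 and an FDR of 0.02%. The one downstream, at 8985825 to 8986441, lay inside Wdr35, a gene of ciliary transport, with 293 tags (260 to 329), a fold of 10.97 and an FDR of 0%. Both had many tags, more than 89.4% and 93.1% of all regions, but folds below the list's median of 12.18. They stood almost equally far from the gene, at 13.55 and 13.80 kb.

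Matn4 (chromosome 2, 164389393 to 164405160), a matrilin found in many tissues, had 3 regions, as many as any of the 10 genes. Of these, 2 lay beyond its 3′ end in no annotated gene. The region at 164381661 to 164382236, 7.16 kb from the span, had 202 Control tags (175 to 232), a fold of 14.93 and an FDR of 0%. The region at 164370106 to 164370725, 18.67 kb from the span and nearer to the protease inhibitor gene Slpi, had 314 tags (280 to 351), the highest count among the 15, with a fold of 13.87 and an FDR of 0%. The third, at 164407783 to 164408196, lay 2.62 kb from the span on the upstream side, within Rbpjl, a relative of the Notch pathway factor RBPJ whose span overlaps that of Matn4. It had 83 tags (66.1 to 103), a fold of 5.85, the lowest of the 15, and an FDR of 82.75%. Matn1, Matn3 and Matn4 thus had 0, 2 and 3 regions, all of them outside these genes.

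Prg4, the lubricin gene of the joint surface and synovium (chromosome 1, 150449412 to 150466221), had 2 regions, both inside the neighbouring nuclear pore gene Tpr, whose span overlaps one end of Prg4. The region at 150445613 to 150446039, 3.37 kb from Prg4, had 59 Control tags (44.9 to 76.1), a fold of 19.55 and an FDR of 1.88%. The one at 150437024 to 150437600, 11.81 kb away, had 167 tags (143 to 194), a fold of 12.17 and an FDR of 0%. The nearer region had the larger fold and the fewer tags.

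Snorc, which encodes a transmembrane proteoglycan of cartilage (chromosome 1, 87470201 to 87475482), had 2 regions on one side, both in sequence with no annotated gene between Gigyf2 and Snorc. The region at 87460512 to 87460844, 9.36 kb from the span, had the largest fold of the 15, 55.17, with 51 Control tags (38 to 67.1) and an FDR of 0.06%. A lower fold was listed for 98.9% of all regions. The region at 87467411 to 87467987, 2.21 kb from the span, had 206 tags (179 to 236), a fold of 17.77 and an FDR of 0%. Snorc was the only one of the 10 genes with 2 regions for which it was itself the nearest protein-coding gene, and both had an FDR of at most 5%. Since the fold is a ratio, a value of this size from 51 tags goes with a low level predicted from the cKO library. The cKO tags of the region themselves were not available.

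Ucma, a secreted Gla-rich protein of the upper growth plate (chromosome 2, 4976122 to 4985748), had 3 regions and the highest density of the 10, at 6.05 regions per 100 kb of window. Over all protein-coding genes the median was 1.76, and 89.6% had a lower density than Ucma. The region inside the gene lay at 4982155 to 4982521, with its summit 6.26 kb downstream of the start. It had 68 Control tags (52.8 to 86.2), a fold of 8.34 and an FDR of 42.59%. The other two lay inside Mcm10, a DNA replication factor gene. That at 4991953 to 4992321 had 117 tags (96.8 to 140), a fold of 14.20 and an FDR of 0.04%, and that at 4993994 to 4994325 had 35 tags (24.4 to 48.7), a fold of 16.74 and an FDR of 27.38%. Only the middle one of the 3 had an FDR of at most 5%.

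Chad, the gene of the leucine-rich repeat protein chondroadherin (chromosome 11, 94565047 to 94569127), lies wholly within the span of Acsf2, an acyl-CoA synthetase family gene. Its only region, at 94584544 to 94584856, was in another stretch of Acsf2, 15.42 kb from Chad. It had 27 Control tags (17.8 to 39.3), the fewest of the 15, with a fold of 15.43 and an FDR of 96.22%. Chad had no region of FDR at most 5%, and neither had Acan.

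As a set, the regions of the matrix genes resembled the list they came from. Their median fold was 13.87 (range 5.85 to 55.17), against 12.18 over all regions (interquartile range 8.55 to 18.30). Their median was 94 Control tags (range 27 to 314), against 103 (59 to 175), and their median length was 427 bp against 475 bp. Over the 10 regions of FDR at most 5% the median was 184.5 tags. No value of the whole list under that limit is given, so this median has no background. An FDR of at most 5% was listed for 10 of 15, where the share over all regions was 56.9%, and a fold of at least 10 for 11 of 15, where it was 64.6%. Apart from the median under the FDR limit, each value was near that of the whole list. Regions of the same locus are not replicates of the genotypes.

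**Figure D3:**
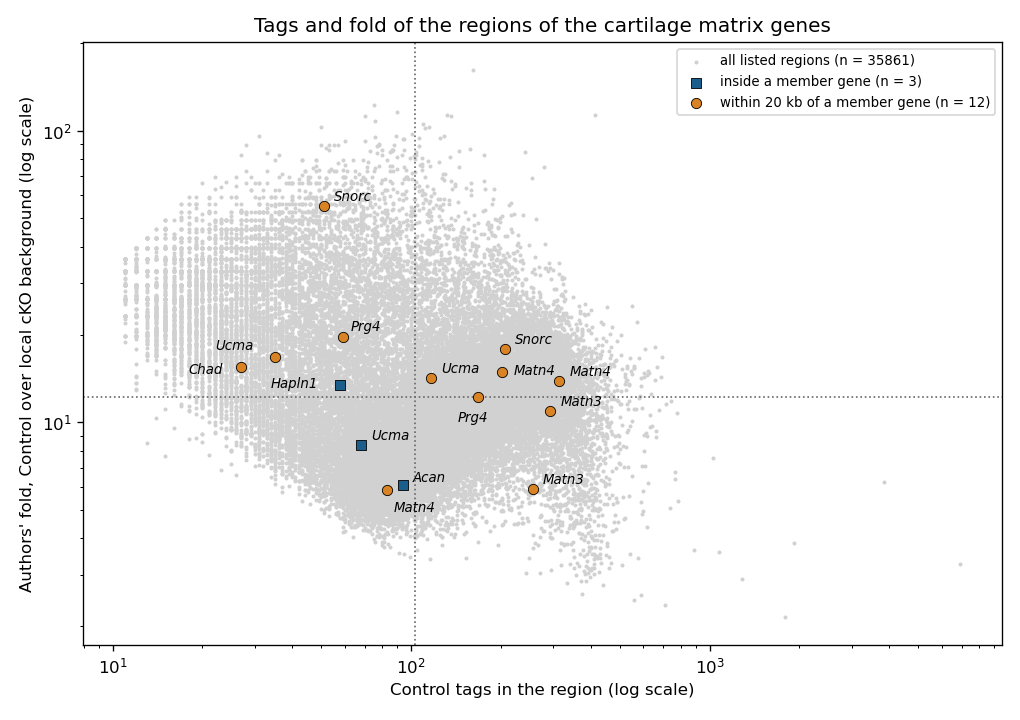
Control tags (x axis, log scale) against the authors' fold of Control over the local cKO background (y axis, log scale) for all 35861 listed regions (grey) and the 15 regions of the cartilage matrix genes, with squares inside a gene (n = 3) and circles in the flanks (n = 12). Dotted lines mark the medians of all regions, 103 tags and 12.18-fold, and the Snorc region at 55.17-fold stands highest among the members.

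By position, the 15 regions overlapped in tags. In fold, those inside a matrix gene reached 13.44, just below the lowest of those in the flanks with no annotated gene, 13.87. The other pairs of groups overlapped. All listed regions were not split in this way, so nothing particular to these genes is read from it. The 3 inside a matrix gene had folds of 6.09, 8.34 and 13.44 and 58 to 94 tags. The 4 in the flanks with no annotated gene, at Snorc and Matn4, had folds of 13.87 to 55.17 and 51 to 314 tags, and all 4 had an FDR of at most 5%. The 8 flank regions inside another gene ranged from 5.85 to 19.55-fold, and 5 of them had an FDR of at most 5%. The last range covers that of the regions inside a matrix gene and overlaps that of the flanks with no gene. These groups rest on few loci and were formed after the values were seen, so no test was made. By the stricter FDR, 6 of the 10 genes kept a region in the window (Hapln1, Matn3, Matn4, Prg4, Snorc and Ucma), against 50.9% of all protein-coding genes and 53.2% of those as long as the members.

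Other genes of the matrix had a region in the widened span about as often as protein-coding genes in general. Of 32 further non-collagen matrix genes, 21 had a region in the widened span (65.6%), against 65.4% of all protein-coding genes. A region lay inside the span of 8 (25%, against 38.2%) and within 1 kb of an end of 2 (6.25%, against 9.64%). These 2 of the 32 were Vcan and Hspg2, named after their values were seen, and the differences were not tested. The 4 with the largest fold inside the span were Hspg2, the basement membrane proteoglycan perlecan (58.85-fold, 75 tags), Ncan, the brain proteoglycan neurocan (50.07-fold, 54 tags), Matn2, a further matrilin (39.55-fold, 31 tags), and Fn1, fibronectin (36.02-fold, 81 tags). Their FDR was at most 4.77%. These 4 were picked for their fold. Of the other 4 with a region inside the span, Vcan reached 12.68-fold and Thbs4 8.82-fold. Both folds were within the range of the regions inside Acan, Hapln1 and Ucma. Spock1 and Spon1 reached 28.31 and 32.96-fold with few tags (12 and 17). The FDR of these regions was 84.6% at Vcan, 100% at Thbs4, 96.04% at Spock1 and 96.33% at Spon1. Counting every region in the span, 7 of the 32 genes had one of FDR at most 5% (21.9%), against 28.2% of all protein-coding genes. Matn2 was the only matrilin gene with regions inside its span, 2 in 130 kb, and Matn1, Matn3 and Matn4 are 11.1 to 24.1 kb long.

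Of 11 cartilage collagen genes, 6 had a region in the widened span (54.5%) and 2 inside the span, Col6a3 of the pericellular collagen VI (14.02-fold, 164 tags, FDR 0%) and Col9a1 (6.98-fold, 133 tags, FDR 1.93%). The collagen genes, like the 10 members, had no region within 1 kb of an end. Over all protein-coding genes 65.4% had a region in the widened span, 38.2% inside the span and 9.64% within 1 kb of an end. Differences of the lists from these shares were not tested. Of 14 genes of other cell types that a cartilage digest may hold, 10 had a region in the widened span (71.4%) and 6 inside the gene span (42.9%). The largest folds inside the gene span were at Pecam1 of endothelium (20.57), Pdgfra of fibroblasts (20.03), Myh3 of developing muscle (12.63) and Ptprc of blood cells (12.38). The share of other cells in either library was not measured.

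**Figure D4:**
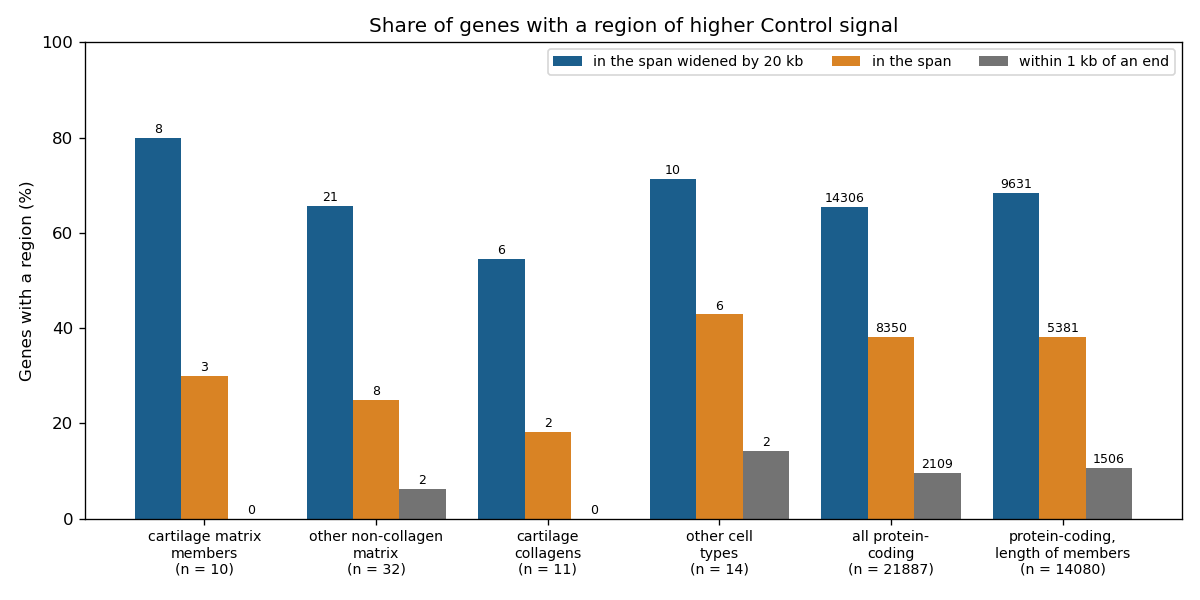
Percent of genes with a region (y axis) in the widened span, in the span and within 1 kb of an end, for the 10 cartilage matrix genes, 3 comparison lists, all protein-coding genes and those as long as the members, with the number of genes above each bar. The 8, 3 and 0 cartilage matrix genes stand beside 65.4%, 38.2% and 9.64% of all protein-coding genes.

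The libraries differed in ways that touch all these values. After removal of duplicates 9782276 Control tags (44.8%) and 15039206 cKO tags (76.1%) were kept. The part of this difference in the folds was not tested. The targeted gene, Uhrf1, held 5 listed regions in its span, which does not check the deletion, since captured DNA can fall with methylation as well as with gene copies.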

How the data were processed

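MBD-seq libraries of 1 Control and 1 Uhrf1 cKO sample were compared by the authors, who deposited 1 list of regions higher in Control. Per the file headers, regions were called with MACS 1.4.2 at a p limit of 1e-10, with the cKO library as background, at most 1 tag per position, the larger library scaled towards the smaller, a tag size of 55 bp and a modelled shift d of 58 bp. The submitters' processing notes name the build mm10. No aligner is given in the sources used here. As deposited, tags are whole counts of Control reads, the score is minus log10 of the Poisson p times 10, the fold is a ratio over the local cKO background, and the FDR is a percent. A high duplicate share lowers the tag count of dense regions.

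Genes were taken from the RefSeq table of GRCm38.p6 (21887 protein-coding genes on 21 chromosomes), which held all 10 members by symbol. The strand came from the promoter table for 7 of them. A region belonged to a gene when at least 1 bp overlapped its span widened by 20 kb. The overlap code was tested on simulated data. No test between the libraries was possible with 1 library each, and counts of genes are set beside all protein-coding genes. Alternatives were other windows, stricter p and FDR limits, summits in place of overlap, joined regions and nearest genes only. Named genes were the 10 members, the genes holding or nearest to their regions, and up to 4 genes of each comparison list by the largest fold in the span. The members, lists and rules were chosen with earlier results of these data known. Tables were computed with pandas 2.3.3, NumPy 2.4.6 and SciPy 1.17.1 under Python 3.11.15, and figures drawn with Matplotlib 3.10.9.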

Additional observations from a re-analysis of the deposited data

How the results depend on the processing

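Of 59 values under alternative settings, 51 stayed within 1.5 times the reported count or within the binomial interval of the reported median, and 8 moved further. The binomial interval of a median over 15 regions is wide: the median of 94 Control tags stayed within it but rose to 167 at a p of 1e-20 or less and to 184.5 at an FDR of at most 5%, as the regions removed had 27 to 94 tags. With only regions for which the member is the nearest protein-coding gene, 5 genes and 6 regions remained of 8 and 15. A window of 5 kb left 6 regions, at 6 of the 10 genes, where 47.4% of all protein-coding genes had one. It also left 12 of the 32 other non-collagen matrix genes with a region. A window of 50 kb held 29 regions, with all 10 genes covered, where 80.2% of all protein-coding genes were. The count of 3 genes with a region in the span fell to 1, Hapln1, at a p of 1e-20 or less and also at an FDR of at most 5%. A region of that FDR lay in the span of 28.2% of all protein-coding genes. The difference from 1 of 10 members was not tested. For the span at a p of 1e-20 or less, no share over all genes is given. Within 5 kb of an end 4 genes had a region, against 0 within 1 or 2 kb. The share over all protein-coding genes is given at 1 kb only (9.64%). The counts at 2 and 5 kb are therefore values without a background, and nothing particular to these genes is read from them. No paired analysis was possible because each genotype has 1 library, so there are no replicates to pair. For the same reason no library could be left out. The tags of the 15 regions ran from 27 to 314, and no setting varied the depth.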

Other observations

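Each of the 4 proteoglycans of the aggrecan family lies beside a link protein gene in the mouse genome, and Acan and Hapln1 belong to different pairs. These pairs were chosen after the values were seen and are given as values only. With 20 kb on both sides, the Acan and Hapln3 locus had 1 region, the one in Acan at 6.09-fold. The Hapln1 and Vcan locus, whose genes lie 43.5 kb apart, had 2, of which 1 was the Hapln1 region at 13.44-fold. The other had its summit 0.83 kb inside the lower-coordinate end of Vcan (chromosome 13, 89655988 to 89656335, 32 tags, 12.68-fold, FDR 84.60%). These were also the only 2 regions listed in the 1 Mb around Hapln1. The locus of the brain proteoglycan Bcan and Hapln2 had 1 region, between the genes (chromosome 3, 88013771 to 88014393, 230 tags, 15.61-fold, FDR 0%). The locus of Ncan and Hapln4 had 1, inside Ncan (chromosome 8, 70101701 to 70102139, 54 tags, 50.07-fold, FDR 0.02%), with a fold above that of 98.4% of regions. The density was 0.834, 0.825, 1.25 and 1.29 regions per 100 kb in the order given, within the interquartile range of 0 to 3.76 for single protein-coding genes (median 1.76). No link protein gene other than Hapln1 had a region inside its span, where 38.2% of all protein-coding genes had one. Hapln2, Hapln3 and Hapln4 are 6.95, 16.1 and 7.33 kb long, against 71.3 kb for Hapln1. Nothing particular to Hapln1 is read from this.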
